A study of Homo sapiens with 6 samples.

Results

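The 63 genes described here are protein-coding genes that lie wholly within chr22:18000000-23100000 (GRCh38), the stretch of 22q11 on the centromere side of BCR, as they were measured in K562 cells. K562 is an established erythroleukemia line derived from chronic myelogenous leukemia. It carries the BCR-ABL1 fusion in extra copies, and the working name of this stretch refers to that amplified segment. The rule for members used position and a list of names to leave out, not levels, but it was set with earlier results of these data known. Transcript identifiers were mapped to GENCODE release 44, 70 coding genes with a counted transcript of usable length fell in the window, and 7 were set aside by the rule (MRPL40, CDC45, MED15, CRKL and 3 ZNF genes), together with immunoglobulin segments. The 63 members are among 19032 matched coding genes and 37339 matched transcription units (TUs) of the whole series. Coding genes of chromosome 22 beyond 26 Mb, 301 in number, served as the comparison. The coding genes LZTR1, PEX26, VPREB1 and GGTLC2 of the same stretch had no matched transcript and were not analysed here.

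The samples were 4 total RNA-seq libraries (rRNA-depleted) and 2 PRO-seq libraries of unmodified, untreated K562 cells grown in RPMI-1640 with fetal bovine serum. All came from cells of the same flask, so the spread between libraries is technical, and every p-value below measures that spread alone. PRO-seq sequences the nascent RNA held by engaged RNA polymerases, and RNA-seq measures the RNA present at steady state. Counts on TUs ranged from 5732780 to 9002746 in RNA-seq and were 6993816 and 7245632 in PRO-seq. The erythroid identity of the line was visible in RNA-seq, with GATA1 at 155 TPM (counts per length, scaled to the same total in each library), KLF1 at 186 TPM and HBE1 at 3101 TPM, whereas CD3E (T cells) was at 0.32 TPM and MPO (myeloid granules) at 0.02 TPM. RNA-seq replicates 1 and 3, and likewise 2 and 4, were closer to each other (chi-square per degree of freedom 1.13 and 1.12) than the other RNA-seq pairs were (1.75 to 2.13). DNA copy number was not measured in these libraries, so copies of a gene and transcription per copy cannot be told apart in any level given here.

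The stretch is known for the recurrent 22q11.2 deletion, the cause of DiGeorge and velocardiofacial syndromes, and for the blocks of near-identical sequence that flank it. Its genes have no common function. They include chromatin and tRNA factors, a mitochondrial citrate carrier, ubiquitin pathway proteins, signalling enzymes and a platelet receptor chain, and they are separated by genes used mainly in testis, brain or endothelium. PRAME, a cancer-testis antigen, and IGLL5, a gene of the immunoglobulin lambda locus, lie closest to BCR.

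To show what the transcription machinery meets at these genes, the bases just before the start of 6 counted transcripts are given in the sense of the gene, 5′ to 3′. They are those of 3 of the 4 members highest in PRO-seq (PRAME, YDJC, TOP3B), of 2 of the 5 members with the longest relative half-life (SDF2L1, SLC25A1), and of the gap between the starts of PI4KA and SNAP29, which point away from each other. Capitals mark GGGCGG (the GC box) and CCAAT on either strand, and the sequences are from RefSeq promoter windows on GRCh38.p14.
PRAME, chr22:22559362-22559515, minus strand: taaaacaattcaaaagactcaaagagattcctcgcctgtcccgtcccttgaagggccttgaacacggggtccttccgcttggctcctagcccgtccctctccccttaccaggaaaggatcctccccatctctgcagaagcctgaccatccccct
YDJC, chr22:21630023-21630272, minus strand: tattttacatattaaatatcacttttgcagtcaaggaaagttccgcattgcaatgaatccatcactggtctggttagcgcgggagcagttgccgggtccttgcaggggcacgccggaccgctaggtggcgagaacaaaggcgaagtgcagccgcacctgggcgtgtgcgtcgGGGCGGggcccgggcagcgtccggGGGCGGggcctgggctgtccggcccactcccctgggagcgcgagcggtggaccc
TOP3B, chr22:21982788-21983037, minus strand: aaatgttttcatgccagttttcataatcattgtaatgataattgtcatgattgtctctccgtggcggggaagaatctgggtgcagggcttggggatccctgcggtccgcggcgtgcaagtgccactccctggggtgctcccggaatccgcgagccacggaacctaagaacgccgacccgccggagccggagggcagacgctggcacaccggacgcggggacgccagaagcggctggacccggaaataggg
SDF2L1, chr22:21642052-21642301, plus strand: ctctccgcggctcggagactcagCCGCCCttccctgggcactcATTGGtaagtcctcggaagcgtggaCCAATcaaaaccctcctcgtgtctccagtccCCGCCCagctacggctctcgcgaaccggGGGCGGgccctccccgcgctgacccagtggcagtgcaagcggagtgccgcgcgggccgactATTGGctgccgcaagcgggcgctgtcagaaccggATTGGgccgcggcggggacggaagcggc
SLC25A1, chr22:19178737-19178986, minus strand: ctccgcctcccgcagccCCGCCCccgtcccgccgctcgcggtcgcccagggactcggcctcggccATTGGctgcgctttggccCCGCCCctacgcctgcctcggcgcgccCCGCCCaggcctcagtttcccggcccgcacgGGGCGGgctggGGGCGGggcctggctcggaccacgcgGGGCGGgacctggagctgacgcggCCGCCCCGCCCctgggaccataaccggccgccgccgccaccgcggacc
SNAP29 and PI4KA, chr22:20858812-20859006, plus strand: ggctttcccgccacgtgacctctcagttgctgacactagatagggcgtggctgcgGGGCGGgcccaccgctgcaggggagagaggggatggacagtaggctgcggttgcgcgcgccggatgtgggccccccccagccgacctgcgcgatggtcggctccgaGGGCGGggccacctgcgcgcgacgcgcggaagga

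Of the 6 sequences, that of SLC25A1 held 8 GC boxes, that of SDF2L1 held 3 GC boxes and 4 CCAAT boxes, and those of PRAME and TOP3B held neither motif. A promoter entry existed for 42 of the 63 members, and for 38 the RefSeq start lay within 100 bp of the counted start. In the 250 bases before the start, 71.1% of those 38 held GGGCGG on either strand, against 42.6% of the 35116 promoters of the table. The median GC content of the 38 was 70% and the median number of CG dinucleotides was 28.5, against 58% and 11 over the table. CCAAT was found in 26.3% of the members and 32.0% of all promoters, and TATAAA in 2.63% and 10.7%. AGATAA, a form of the erythroid GATA motif, was in 0 of the 38 windows and in 9.17% of the table. Other forms were not searched. TGATAA stands in the printed sequence of TOP3B, and AGATAG in that of SNAP29 and PI4KA. The ETS core CCGGAAG was in 2.63% of the members and 8.52% of the table. The table covers noncoding genes too, so these shares are not matched for gene type.

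Levels are given as TPM, which divides counts by length (exon bases for RNA-seq, the TU span less 1000 bp for PRO-seq), and come from counts summed over the libraries of an assay unless a library is named. A count was found for 54 of the 63 members in PRO-seq, for 57 in RNA-seq and for 50 in both. The median member stood at 37.3 TPM in PRO-seq, against 13.5 TPM for coding genes beyond 26 Mb and 8.05 TPM for all 18961 coding genes of usable length. In RNA-seq the medians were 7.78, 4.32 and 2.68 TPM. These medians take in every member, those at 0 included.

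The difference lay in the number of members at high levels. In PRO-seq, 22 of the 63 members (34.9%) were above 100 TPM, against 17 of 301 genes beyond 26 Mb (5.65%) and 8.69% of all coding genes. Each PRO-seq library alone also gave 22 members, and 15 or 20 genes beyond 26 Mb. In RNA-seq 16 members (25.4%) were above 100 TPM, against 24 genes beyond 26 Mb (7.97%) and 9.17% of all coding genes, and the 4 libraries gave 16 or 17 members and 24 comparison genes each. Above 200 TPM in PRO-seq were 14 members and 4 comparison genes. These are counts over genes, which are not replicates, and no test was made of them.

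**Figure D1:**
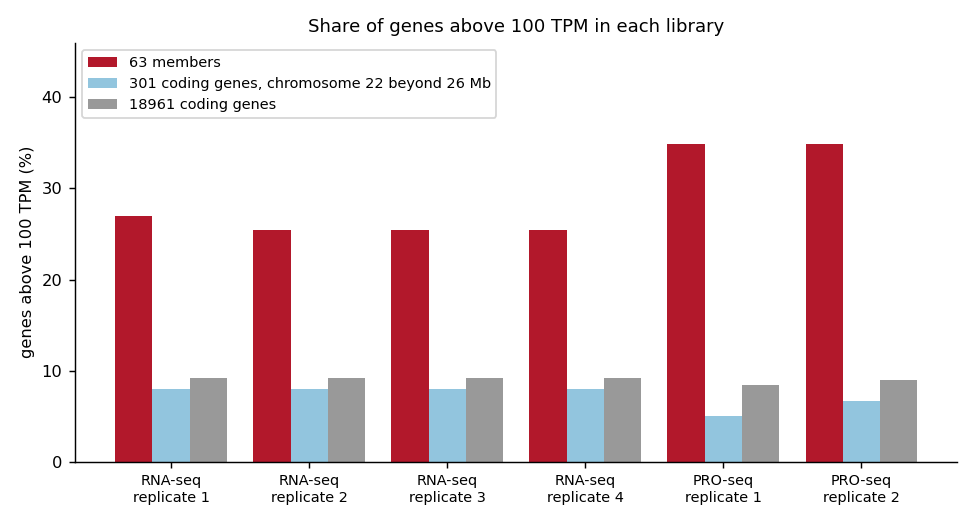
Bars give the percentage of genes above 100 TPM (vertical axis, from 0) in each of the 4 RNA-seq and 2 PRO-seq libraries, for the 63 members (red), the 301 coding genes of chromosome 22 beyond 26 Mb (blue) and all 18961 coding genes (grey). The members' bars stand between 25.4% and 26.98% in RNA-seq and at 34.9% in both PRO-seq libraries, and the comparison bars are below 10% in all 6 libraries.

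The level differed along the stretch. The 9 members from 18 to 19 Mb had a median PRO-seq level of 0.898 TPM, and none was above 100 TPM. Among them DGCR6, PRODH, USP18, TMEM191B, RIMBP3 and GGTLC3 are listed as near-identical copies. TUBA8 and ENSG00000283809 share 99.9% and 37.3% of their PRO-seq span with another TU of the same strand. Reads that go uncounted and low transcription thus cannot be told apart in this part of the stretch. From 19 to 20 Mb the median of 20 members was 63.01 TPM with 7 above 100 TPM, from 20 to 21 Mb it was 42.7 TPM over 14 members with 6 above, and from 21 to 22 Mb 73.4 TPM over 18 members with 8 above. Beyond 22 Mb lay only PRAME and IGLL5. Outside the window the medians were 14.4 TPM below 18 Mb (13 genes), 1.69 TPM from the window's end to 26 Mb (40 genes) and between 4.95 and 17.7 TPM in the 5 Mb bins beyond 26 Mb.

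The genes at and across each edge had levels near each other. The first member, ENSG00000288683 (chr22:18077989-18131720), was at 36.9 and 36.03 TPM in the PRO-seq libraries, and MICAL3, the coding gene that crosses the window's start, was at 33.4 and 36.3 TPM. The last member, IGLL5 (chr22:22887780-22896111), a gene of B cells, had 1 count in RNA-seq replicate 2 and 0 in the other 5 libraries. RSPH14 and GNAZ, which cross the window's end, were at 0.845 and 1.68 TPM in PRO-seq. RAB36, wholly outside it, was at 1.20 TPM, and BCR, the next gene, was at 139 TPM. BCR stood at 49.7 TPM in RNA-seq, and reads from its intact and fused copies are counted together.

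**Figure D2:**
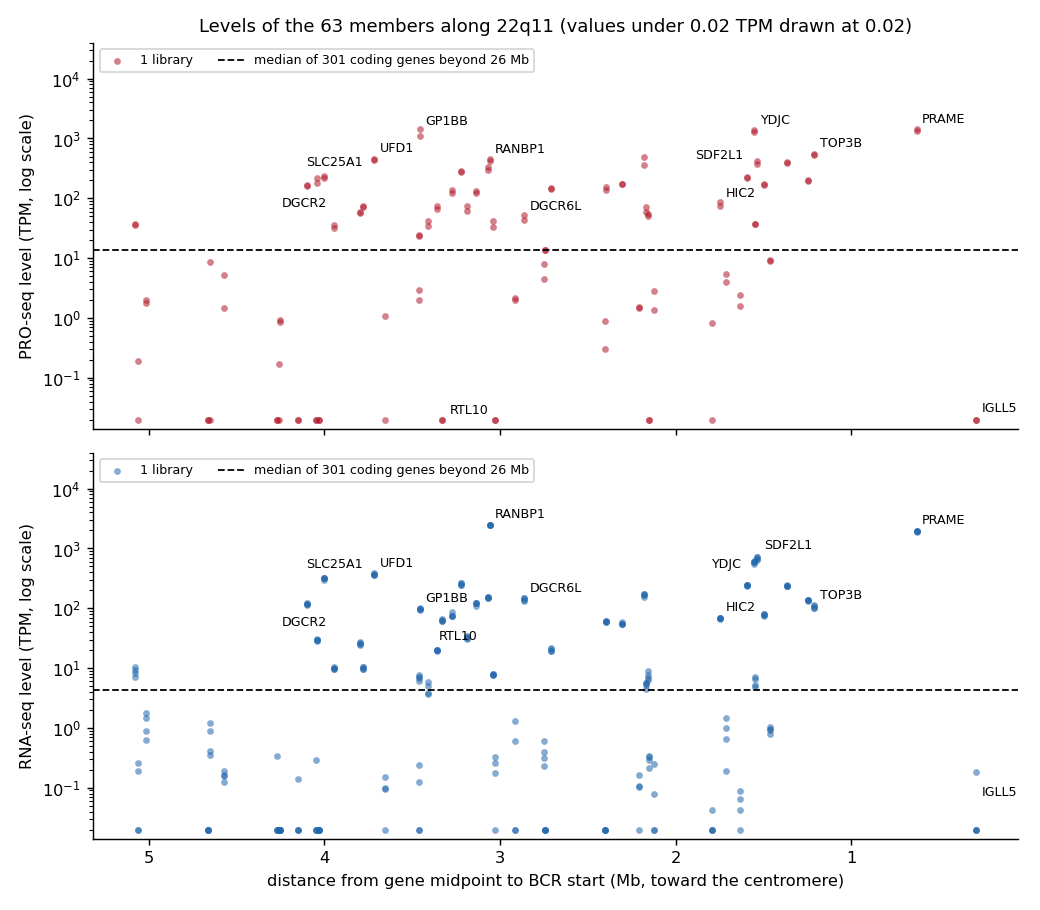
PRO-seq (upper panel, 2 libraries) and RNA-seq (lower panel, 4 libraries) levels in TPM on log axes of the 63 members, 1 point per member and library, against the distance in Mb from the gene's midpoint to the start of BCR. Values under 0.02 TPM are drawn at 0.02. The dashed lines are the medians of the 301 coding genes beyond 26 Mb (13.5 TPM in PRO-seq, 4.32 TPM in RNA-seq). From DGCR2 to PRAME, 22 members stand above 100 TPM in PRO-seq, with members near 0 between them.

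PRAME (ENSG00000185686, chr22:22547701-22559361, 6 exons) had the highest PRO-seq level of the members, 1317 and 1423 TPM in replicates 1 and 2. Its RNA-seq level was 1924, 1909, 1945 and 1924 TPM in replicates 1 to 4. The RNA-seq mean was 1925 ± 15.0 TPM (SD, n = 4), and PRAME alone held 21.98% of the members' summed RNA-seq TPM. RANBP1 (ENSG00000099901, chr22:20115938-20127355), which helps the GTPase Ran to carry cargo through the nuclear pore, was highest in RNA-seq at 2496, 2492, 2500 and 2476 TPM, and reached 448 and 425 TPM in PRO-seq. It held 28.5% of the summed RNA-seq TPM. RANBP1 thus exceeded PRAME in RNA-seq in all 4 libraries and was lower in both PRO-seq libraries.

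YDJC (chr22:21628089-21630064), a predicted sugar deacetylase, followed PRAME in PRO-seq at 1275 and 1393 TPM and had 596, 560, 609 and 591 TPM in RNA-seq. GP1BB, a chain of the platelet receptor for von Willebrand factor, was at 1112 and 1465 TPM in PRO-seq and at 102, 95.9, 96.1 and 93.5 TPM in RNA-seq. Only 233 bp of GP1BB remain once the ends are taken off, and its 2 PRO-seq values rest on 67 and 90 counts. With 500 bp taken off in place of 1000 bp, its PRO-seq level was 496 TPM, below those of TOP3B, UFD1 and RANBP1. TOP3B, a topoisomerase, was at 534 and 541 TPM in PRO-seq, and UFD1, a cofactor that brings ubiquitinated proteins to the ATPase VCP, at 442 and 446 TPM.

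At the low end, GSC2 (a homeobox gene) and GGTLC3 had no count in any library. For 14 members the summed count was under 10 in each assay, among them TUBA8, DGCR6, PRODH (proline oxidase), TSSK2 (a testis kinase), CLDN5 (an endothelial tight junction protein), SERPIND1 (heparin cofactor of liver) and SLC7A4. A difference between these 14 could not be measured from so few counts. TUBA8 and DGCR6 also share 99.9% and 100% of their PRO-seq span with another TU of the same strand, and such bases go uncounted, so their low counts and low expression cannot be told apart. DGCR6, PRODH, RIMBP3 and GGTLC3 have near-identical copies, and records aligned to more than 1 place are listed apart from the TU counts, so their levels are uncertain.

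PRO-seq and RNA-seq levels rose together across genes. Over the 50 members with a count in both, Spearman's rho of the levels was 0.927, against 0.811 over 255 genes beyond 26 Mb and 0.835 over 14963 coding genes. This is a description across genes, which are not replicates and share libraries and annotation.

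**Figure D3:**
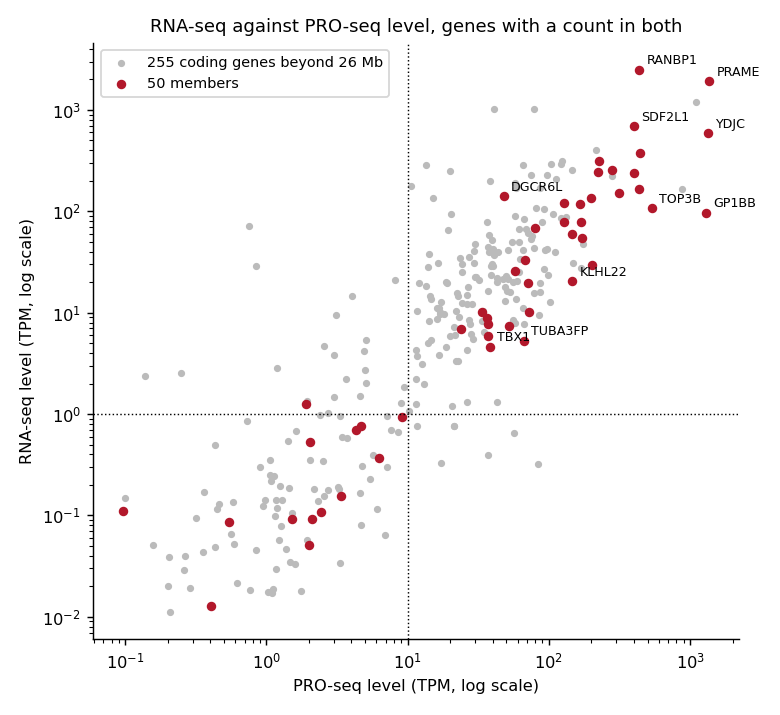
RNA-seq level against PRO-seq level, both in TPM on log axes, for the 50 members (red) and 255 coding genes of chromosome 22 beyond 26 Mb (grey) with a count in both assays. Dotted lines mark the thresholds, 10 TPM for PRO-seq and 1 TPM for RNA-seq. Members form a group at low levels in both assays and a group to the right of the PRO-seq threshold that reaches farther right than most grey points, with RANBP1 far above and GP1BB far below the others at their PRO-seq level.

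Relative half-life, the ratio of the RNA-seq level to the PRO-seq level of a TU, was taken for genes whose PRO-seq level passed 10 TPM and whose RNA-seq level passed 1 TPM. It has no time unit and assumes that the level is steady. The authors state that PRO-seq reflects elongation rate as well as transcription rate. The ratio of a gene can therefore differ through elongation too, which was not tested here. The thresholds were passed by 36 of the 63 members (57.1%), 153 of 301 genes beyond 26 Mb (50.8%) and 8733 coding genes (46.1%). The test was edgeR's quasi-likelihood test of RNA-seq against PRO-seq over 10052 TUs with Benjamini-Hochberg adjustment, centred on the median coding gene. Among the 8733 coding genes, 45.4% were above and 44.9% below the median coding gene at an adjusted p under 0.05.

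Of the 36 members tested, 12 (33.3%) were above, 23 (63.9%) were below and 1, TXNRD2, was not apart from the median coding gene (adjusted p = 0.16, edgeR). Beyond 26 Mb, 66 of 153 genes were above (43.1%) and 70 below (45.8%). The median log2 half-life of the 36 members was -0.54, against 0.02 for the 153 genes. Their median PRO-seq levels, the denominator of the ratio, were 156 and 38.9 TPM. The middle 50% of members ranged from -1.64 to 0.39, and the SD over members was 1.43. No test was made of the members as a group. Without the TPM thresholds, at 1 summed count in both assays, the median coding gene moves, all tested coding genes shift up by 0.63 on the log2 scale, and 18 of 50 members were above and 22 below it, against 42.5% and 32.8% of 14963 coding genes.

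**Figure D4:**
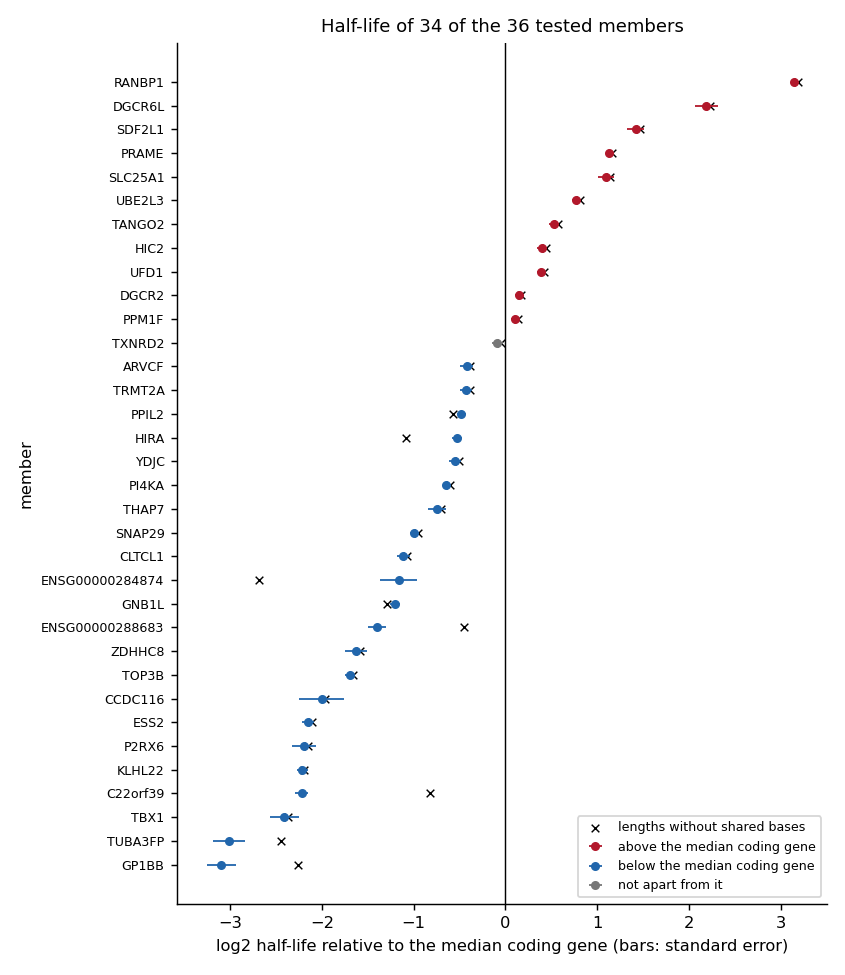
Log2 half-life of 34 of the 36 tested members relative to the median coding gene (vertical line at 0), with the standard error of edgeR's fit, in order of value. Red points are members above the line, blue points members below it and the grey point is TXNRD2. Crosses give the value when bases shared with another TU of the same strand are left out of the lengths, and they move far for C22orf39, ENSG00000284874, ENSG00000288683, GP1BB, TUBA3FP and HIRA.

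RANBP1 had the longest relative half-life of the members, 8.85-fold that of the median coding gene (log2 3.15, SE 0.04, adjusted p = 5.5e-33, edgeR). The single values were 3.11 for the replicates numbered 1 and 3.20 for those numbered 2. DGCR6L, a near-identical copy of DGCR6 of unsettled function, came next at 2.19 (SE 0.12), with RNA-seq levels of 149, 132, 151 and 137 TPM and PRO-seq levels of 52.1 and 44.04 TPM. Its PRO-seq level rests on 121 summed counts. As for DGCR6, records aligned to more than 1 place are not in its counts, so its levels and ratio are uncertain beyond the SE. SDF2L1, part of a chaperone complex of the endoplasmic reticulum, was at 1.42 (SE 0.09), PRAME at 1.12 (SE 0.03) and SLC25A1, the mitochondrial citrate carrier, at 1.10 (SE 0.09). These 5 were above 0 under each alternative tried.

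At the other end, GP1BB was lowest at -3.10 (SE 0.16, adjusted p = 2e-17, edgeR). It moved to -1.49 when 500 bp in place of 1000 bp were taken off the PRO-seq span. Of its exon bases, 42.1% are shared with another TU of the same strand. With shared bases left out of the lengths GP1BB was at -2.27 and was no longer lowest. ENSG00000284874 was then at -2.68, TUBA3FP at -2.45 and TBX1 at -2.37. TUBA3FP, a tubulin pseudogene that GENCODE classes as coding, stood at -3.01 (SE 0.18), with 5.60, 5.67, 5.23 and 4.39 TPM in RNA-seq and 60.0 and 72.9 TPM in PRO-seq. TBX1, the T-box factor held mainly responsible for the heart defects of the 22q11.2 deletion, was at -2.41 (SE 0.16), with PRO-seq levels of 42.1 and 34.4 TPM and RNA-seq levels between 3.73 and 5.85 TPM. KLHL22, a substrate adaptor of a cullin ubiquitin ligase, was at -2.21 (SE 0.06), with PRO-seq levels of 145 and 148 TPM and RNA-seq levels between 19.6 and 21.5 TPM.

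C22orf39 stood at -2.22 (SE 0.07), but the transcript counted for it extends over most of HIRA and shares 83.3% of its PRO-seq span with other TUs of the same strand. HIRA, a histone chaperone, shares 79.3%. Reads that fit both TUs are not assigned to either, so their lengths are too long for the counts they hold. With shared bases left out, C22orf39 was at -0.82 and HIRA moved from -0.53 to -1.09, and both stayed below the median coding gene. The same treatment took ENSG00000284874, which spans parts of SEPTIN5 and GP1BB, from -1.16 to -2.68.

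Only RTL10 and ENSG00000277971 passed the threshold of 1 assay with no count at all in the other, and each shares nearly all of the bases in question with another TU. RTL10, a gene derived from a retrotransposon, was at 62.97, 65.1, 62.0 and 60.8 TPM in RNA-seq and had no count in either PRO-seq library, and 99.7% of its PRO-seq span lies within GNB1L on the same strand. ENSG00000277971 was at 13.5 and 13.9 TPM in PRO-seq and had no RNA-seq count, and all of its exon bases are shared with other TUs. USP18, the protease that removes ISG15, was above the RNA-seq threshold alone, at 1.80, 1.44, 0.62 and 0.90 TPM in RNA-seq and 1.77 and 2.02 TPM in PRO-seq.

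The groups by function are read beside the shares of 45.4% above and 44.9% below over all coding genes, and of 33.3% and 63.9% over the members, and no group was tested. The mitochondrial members with enough signal were above the median coding gene or not apart from it. Of the 6 mitochondrial and peroxisomal members, 4 passed the thresholds, 3 were above and none below. TANGO2 was at 0.53 (SE 0.06), beside SLC25A1. TXNRD2, the mitochondrial thioredoxin reductase, was at -0.09 (SE 0.06), and it passed as below the median coding gene without RNA-seq replicate 2 (-0.14, adjusted p = 0.027, edgeR). It also did so with 500 bp removed (-0.13, adjusted p = 0.044, edgeR) and, narrowly, with thresholds of 20 and 2 TPM (-0.12, adjusted p = 0.05, edgeR). PRODH had 1 count in all 6 libraries together, and AIFM3 had 3 in RNA-seq and 12 in PRO-seq.

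Of 11 members listed as nuclear, chromatin and RNA factors, 10 passed the thresholds, 2 were above (RANBP1 and HIC2) and 8 below. Below were 63.9% of all tested members and 44.9% of coding genes. The 8 take in C22orf39, whose counted transcript extends over most of HIRA. C22orf39 was listed by name, and its function was not examined here. HIC2, a zinc finger repressor, was at 0.40 (SE 0.05), with 67.8, 68.2, 66.2 and 69.9 TPM in RNA-seq and 74.9 and 85.5 TPM in PRO-seq. The listed members below were ESS2, a nuclear protein linked to splicing, at -2.15 (SE 0.07), TOP3B at -1.70 (SE 0.04) and GNB1L at -1.20 (SE 0.06). THAP7 at -0.74 (SE 0.10) and TRMT2A, a tRNA methyltransferase, at -0.43 (SE 0.07) were also below, beside HIRA, C22orf39 and TBX1. TOP3B had a PRO-seq level over 500 TPM and an RNA-seq level of 114, 103, 110 and 101 TPM.

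Of the 5 ubiquitin pathway members, 4 passed and were split. UBE2L3, a ubiquitin-conjugating enzyme, was at 0.77 (SE 0.04) and UFD1 at 0.38 (SE 0.04). PPIL2, a ligase of the U-box type, was at -0.48 (SE 0.05), beside KLHL22. All 4 were above 100 TPM in PRO-seq.

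Of the 7 signalling members, 4 passed, with 1 above and 3 below. PPM1F, a protein phosphatase, was at 0.10 (SE 0.04, adjusted p = 0.022, edgeR), a call lost under 7 alternatives (0.07 to 0.11), among them without RNA-seq replicate 1 or 3 or PRO-seq replicate 1 (adjusted p 0.055 to 0.18, edgeR). PI4KA, a lipid kinase, was at -0.64 (SE 0.04), and P2RX6, an ATP-gated channel, at -2.19 (SE 0.13).

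Of the 6 members of membrane traffic and the secretory pathway, 5 passed, with SDF2L1 above and 4 below. SNAP29, a SNARE protein of membrane fusion, was at -0.99 (SE 0.05), CLTCL1, a clathrin heavy chain, at -1.11 (SE 0.07) and ZDHHC8, a palmitoyltransferase, at -1.62 (SE 0.12), beside PI4KA. SEPTIN5 had 3 counts in RNA-seq and 10 in PRO-seq. It shares 93.1% of its exon bases and 65.2% of its PRO-seq span with other TUs of the same strand. Its low counts and low expression therefore cannot be told apart. Of the 6 surface, adhesion and platelet members, 3 passed. DGCR2, an adhesion receptor, was at 0.15 (SE 0.04), ARVCF, a catenin, at -0.42 (SE 0.07), and GP1BB is given above.

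Of 15 members known for expression outside blood or in other blood lineages, 3 passed (PRAME, TBX1 and CCDC116), and the median of the 15 was 0.544 TPM in PRO-seq but 0.092 TPM in RNA-seq. A list made by name of genes in segmental duplications (called near-identical copies below) held 16 members. Whether each has such a copy was not checked by sequence, and PRAME, the member highest in PRO-seq, is on the list. Of the 16, 4 passed (PRAME, DGCR6L, PI4KA and TOP3B), with a median PRO-seq level of 2.05 TPM over the 16. Without those 16 members, the share above 100 TPM in PRO-seq exceeded that of genes beyond 26 Mb by 34.8 percentage points, against 29.3 with all members.

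Where starts lay within 1000 bp on opposite strands, members could be set side by side in pairs, of which 3 are described. PI4KA and SNAP29, whose shared gap is printed above, start 196 bp apart and stood at 139 and 153 TPM against 171 and 170 TPM in PRO-seq, and at 60.4 against 55.2 TPM in RNA-seq from summed counts.

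ARVCF and TANGO2, 191 bp apart, stood at 68.2 and 129 TPM in PRO-seq and at 32.8 and 120 TPM in RNA-seq, a log2 difference of 0.92 in nascent and 1.87 in steady-state RNA. TUBA3FP and P2RX6, 878 bp apart, were at 66.5 and 52.5 TPM in PRO-seq and at 5.28 and 7.38 TPM in RNA-seq. In each of the 3 pairs both genes passed the thresholds, and the PRO-seq levels of the pair were between 1.17-fold and 1.89-fold apart, which is a description without a test.

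The libraries differed little in the members' levels. The coefficient of variation of RNA-seq TPM over the 4 libraries had a median of 4.26% over the 36 tested members and ranged from 0.42% for RANBP1 to 22.1% for TBX1. Between the PRO-seq libraries, 30 of 36 tested members were higher in replicate 2, with a median log2 ratio of 0.09. The members' part of all counts was 0.898% to 0.925% over the RNA-seq libraries and 0.842% or 0.875% in PRO-seq.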

How the data were processed

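The deposited files hold raw counts per transcript, made by the authors with HTSeq on GENCODE transcripts from reads that Cutadapt trimmed and HISAT2 aligned to GRCh38, with bases at the TU ends left out for PRO-seq. The sources used here give no tool versions. Rows that name no TU held 66.5% to 68.6% of RNA-seq and 86.5% to 88.6% of PRO-seq records and were left out. Of 42371 transcripts, 37339 (88.1%) were matched by identifier, and GRCh38 positions and lengths came from GENCODE release 44. TUs wholly covered by another TU held counts in 1.75% of cases in PRO-seq when that TU was on the same strand and in 58.4% when on the other, so counting used strand and bases shared on a strand go uncounted.

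TPM came from summed counts over 37246 TUs longer than 1000 bp. Half-life was tested with edgeR 4.0.16 (R 4.3.3), with TMM, length offsets, no block and Benjamini-Hochberg adjustment over 10052 TUs. On simulated counts it found 83% of 200 TUs given a log2 change of 1, with 10 false calls. The simulation had a fixed dispersion and no difference for any other TU. In the real data most coding genes were called, so these figures do not carry over to them. Named genes were the 5 members at either end of half-life and the 5 highest in each assay, those seen in 1 assay, divergent pairs, edge genes and role lists. Of the members, 2 are counted but not reported singly here. The members and lists were chosen with earlier results of these data known. Alternatives were DESeq2 1.42.0, library totals, other thresholds and lengths, a pseudocount of 1 TPM, CPM, and each library left out. Lengths without shared bases and other level thresholds were added after seeing the data.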

Additional observations from a re-analysis of the deposited data

Results flagged for a closer look

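Over 38 measures tested across the 4 RNA-seq libraries, 2 were flagged for a library apart from the other 3 relative to their range. Chance alone flags about 1 in 20 groups. TANGO2 was at 108.2 TPM in RNA-seq replicate 4, against 122.9 to 123.8 TPM in the others. The number of members above 100 TPM was 17 in RNA-seq replicate 1 and 16 in the others. Any difference is flagged when 3 libraries hold the same number, so the chance rate does not apply to this count.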

How the results depend on the processing

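The counts of members above and below the median coding gene were within 1.5 times of 12 and 23 under each edgeR and DESeq2 alternative, and leaving out 1 library gave 11 to 12 above and 23 to 24 below. The replicate numbers did not pair the samples (correlation -0.0068 over 9960 TUs), and with replicates 1 and 2 as a block 11 members were above and 23 below. Over all coding genes, 3963 of 8733 tested (45.4%) were above in the main setting. At 1 summed count, where the median gene shifts by 0.63, 6364 of 14963 (42.5%) were above. That setting put ARVCF at 0.21, HIRA at 0.10, YDJC at 0.083, PPIL2 at 0.15, TXNRD2 at 0.54 and TRMT2A at 0.20 instead of below 0, which the shift covers. YDJC was also at 0.022 with 500 bp removed. Of 34 tested members examined singly, 25 kept their call and direction in all 13 settings.

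Members minus genes beyond 26 Mb differed by 2.08 in median log2 PRO-seq level of detected genes, 0.30 in RNA-seq level and -0.56 in half-life. The PRO-seq difference was 1.40 with a pseudocount, 1.25 as CPM, and 1.85 to 2.17 with 1 library left out. The RNA-seq difference ranged from 0.24 to 1.27 with 1 library left out, was 1.22 without replicate 2 and 1.27 without replicate 3, and was 2.03 at 10 summed counts, 1.13 as CPM, 1.66 without near-identical copies, 1.72 without shared bases and 1.75 with the genes set aside put back. The median over detected genes was thus not stable in RNA-seq, and the cause was not tested. The half-life difference was -0.45 as CPM, and -0.61 to -0.52 with 1 library left out.

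The share above 100 TPM in PRO-seq, 29.3 percentage points over genes beyond 26 Mb, was 26.3 with 500 bp removed, 34.8 without near-identical copies, 26.3 against all coding genes, 38.2 without shared bases, 25.1 at 50 TPM, 20.9 at 200 TPM, 34.4 with the genes set aside put back, and 28.3 to 29.9 with 1 library left out. Without the members listed as near-identical copies, 68.1% of the remaining members passed the thresholds. The remaining members held 0.616% of RNA-seq and 0.669% of PRO-seq counts. PRAME, with 73059 summed RNA-seq counts, is among those left out. Depth limits the 14 members with few counts, and all libraries come from the same flask.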

Other observations

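The 7 coding genes of the window that the rule set aside were also transcribed at high levels, from 72.3 to 340 TPM in PRO-seq and from 40.6 to 594 TPM in RNA-seq. With them put back, the share of genes above 100 TPM in PRO-seq exceeded that of coding genes beyond 26 Mb by 34.4 percentage points.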
